A study of Homo sapiens with 36 samples.

Results

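The genes described here are 10 antioxidant and detoxification genes that are textbook targets of the transcription factor NRF2: NQO1, AKR1B10, AKR1C1, AKR1C2, AKR1C3, GCLC, GCLM, TXNRD1, SRXN1 and HMOX1. They were taken by name from the 66361 gene names of the deposited expression files, and each of the 10 was present once. RNA was sequenced from 4 human non-small cell lung cancer lines, each given 3 treatments with 3 libraries per group, 36 libraries in all. H3255 carries EGFR L858R, H1975 carries EGFR L858R/T790M, H820 carries EGFR Ex19del/T790M and A549 has WT EGFR. The treatments were MinE07, an RNA aptamer directed at EGFR, C36, a control aptamer given in a longer version, and vehicle, which was DPBS with magnesium. Aptamers were given at 3 µM and all groups were taken at 24 h in medium with 1% serum. A549 was treated in DMEM while H3255, H1975 and H820 were in RPMI, and the effect of that medium cannot be told apart from that of the line. Each EGFR genotype is represented by 1 cell line, so genotype and line cannot be told apart either. Per the series record, the 3 libraries of a group came from independent experiments.

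NRF2, encoded by NFE2L2, is held at low levels by KEAP1, an adaptor that hands it to a CUL3 ubiquitin ligase. Oxidants and electrophiles, or loss of KEAP1 function, let NRF2 accumulate, pair with a small MAF protein and bind antioxidant response elements, DNA sites that the repressor BACH1 can also occupy. The targets make enzymes that reduce quinones and carbonyls, build glutathione, regenerate thioredoxin and peroxiredoxin, and break down heme. A549 is known as a line with a loss-of-function change in KEAP1.

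The files give FPKM, fragment counts scaled for gene length and library size, which allows levels to be compared between genes. A library held 13236 to 14267 genes above 1 FPKM, and relative depth spanned a 2.35-fold range. COX1, a mitochondrial gene that every cell uses, was listed at 0 in 7 of the 36 libraries, and in 2 of the 3 H820 MinE07 libraries ND4 was at 0 as well, so a 0 in these files is not always a low count. The 5 epithelial markers EPCAM, CDH1, KRT8, KRT18 and KRT19 had a median over 1 FPKM in each line. Of 5 lung epithelial markers, 4 did so in H3255, 2 in each of H1975 and H820, and 0 in A549, where their summed level was 0.185 to 0.371 FPKM and 1 of them was listed at 0 in every library. No blood or endothelial marker had a median over 1 FPKM in any line. Together the 10 genes held 0.0678% to 0.924% of the summed FPKM of a library.

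The aldo-keto reductases need a caution about sequence. AKR1C1 (GRCh38, chromosome 10, 4963253 to 4983283, plus strand), AKR1C2 (chromosome 10, 4987400 to 5018031, minus strand) and AKR1C3 (chromosome 10, 5035354 to 5107686, plus strand) lie side by side. Of the 100-base windows of the longest coding transcript in GENCODE 29, 17.4% of AKR1C1, 32.9% of AKR1C2 and 4.98% of AKR1C3 also occur in another gene, mostly each other. For AKR1B10 (chromosome 7, 134527592 to 134541408, plus strand) the share was 2.01%. How the authors counted fragments that match several genes is not given in the sources used here, so the split between AKR1C1 and AKR1C2 is uncertain, and their sum is less so. SRXN1 (chromosome 20, 646615 to 653370, minus strand) shared 84.5% of its windows with an overlapping GENCODE gene, AL121758.1, so its level is uncertain too. No window was shared for NQO1 (chromosome 16, 69706996 to 69726951, minus strand), GCLC (chromosome 6, 53497341 to 53616970, minus strand), GCLM (chromosome 1, 93885205 to 93909456, minus strand), TXNRD1 (chromosome 12, 104215779 to 104350305, plus strand) or HMOX1 (chromosome 22, 35380361 to 35394214, plus strand).

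The likeness of AKR1C1 and AKR1C2 extends to a stretch of their promoters, set in AKR1C1, and the rest was not compared. The closest ungapped matches to that stretch at AKR1C3 starts had 52 and 46 differing bases. In RefSeq (GRCh38.p14) a stretch of 120 bases upstream of the start had 0 differing bases between AKR1C1 (chr10:4963285-4963404, plus strand) and AKR1C2 (chr10:5003872-5003991, minus strand), shown in the direction of transcription because the balance of the pair differed between lines.
AKR1C1: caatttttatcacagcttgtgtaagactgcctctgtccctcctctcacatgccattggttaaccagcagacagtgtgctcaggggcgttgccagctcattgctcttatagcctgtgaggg
AKR1C2: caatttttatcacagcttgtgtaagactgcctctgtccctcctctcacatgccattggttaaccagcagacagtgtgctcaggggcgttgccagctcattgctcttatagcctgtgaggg

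GCLM and TXNRD1 are shown next because they were the members whose RefSeq promoters (250 bases before to 50 after a start) held the core letters of the antioxidant response element, TGACNNNGC, searched on both strands. The promoter table had an entry for 8 of the 10 genes; AKR1B10 and HMOX1 were not matched. Of all 35116 promoters in the table, 13.35% held the letters, and none of the matches shown overlapped the AP-1 letters TGANTCA. Capitals mark the match, which reads from the opposite strand where it begins with GC. GCLM had 1 match, 34 to 26 bases before its start (chr1:93909436-93909484, minus strand). TXNRD1 had 2 matches at its upstream start (chr12:104215660-104215799, plus strand) and 1 at a downstream start (chr12:104286910-104286958, plus strand). A match is a description of letters, not of binding.
GCLM: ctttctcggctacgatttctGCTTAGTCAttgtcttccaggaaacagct
TXNRD1 upstream start: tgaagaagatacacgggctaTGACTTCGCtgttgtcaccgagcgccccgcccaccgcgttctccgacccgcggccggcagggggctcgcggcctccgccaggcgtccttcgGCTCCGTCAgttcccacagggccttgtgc
TXNRD1 downstream start: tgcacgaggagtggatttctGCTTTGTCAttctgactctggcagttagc

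In vehicle libraries all 10 genes were highest in A549, and the line that came next differed from gene to gene. Each was called higher in A549 than in each of the 3 other lines (adjusted p under 0.05 in limma in all 3 tests), against 17.4% of all genes tested. Members called were 10 of 10 for H3255 against A549 (87.1% of all genes called), 10 for H1975 against A549 (84.6%), 10 for H820 against A549 (85.2%), 9 for H3255 against H1975 (86.1%), 9 for H3255 against H820 (86.3%) and 10 for H1975 against H820 (83.7%), so a call between lines is common and the direction is what varies. The median of all genes was 0.14 log2 lower in H3255 than in H1975, 0.15 higher in H1975 than in H820 and 0.19 higher in H1975 than in A549. Rescaling the libraries brought these medians to 0.01, 0.00 and 0.00 in size and kept each of the 58 calls of the 10 genes. In bulk RNA, fewer cells of a type and less RNA per cell cannot be told apart.

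NQO1 encodes the quinone reductase that is a standard readout of NRF2. Its vehicle levels were 564, 534 and 543 FPKM in A549, 138, 151 and 143 in H3255, 107, 99.3 and 102 in H1975, and 37.9, 35.99 and 36.2 in H820. The 4 lines did not overlap, and every neighbouring pair in that order was called, the closest being H3255 over H1975 (log2 difference 0.48 ± 0.04 SE, adjusted p 2.99e-13). A549 was 3.80-fold above H3255 and 14.9-fold above H820.

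AKR1B10, a reductase of aldehydes and retinal, had the widest range on the log2(FPKM + 0.5) scale. It stood at 1104, 1082 and 1090 FPKM in A549, the highest level of the 10 genes in any line, at 12.05, 12.5 and 11.6 in H820 and at 1.19, 1.24 and 1.03 in H1975. In H3255 the 3 vehicle libraries gave 0.0133, 0.0922 and 0 FPKM, so no fold is given against that line. A549 was 90.4-fold above H820, which was 10.4-fold above H1975. The order of the other 3 lines was the reverse of that for NQO1.

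AKR1C1, AKR1C2 and AKR1C3, hydroxysteroid dehydrogenases that also reduce carbonyls, followed the same order as NQO1: A549, H3255, H1975, H820. AKR1C3 was 617, 517 and 551 FPKM in A549, 45.8, 47.5 and 45.1 in H3255, 10.3, 8.86 and 10.3 in H1975, and 0.398, 0.548 and 0.206 in H820. The summed level of the 3 genes was 1125 ± 73.4 FPKM in A549, 62.6 ± 1.86 in H3255, 10.3 ± 0.819 in H1975 and 0.434 ± 0.182 in H820 (mean ± SD, n = 3), so H820, with the second highest AKR1B10, had the least of this cluster. The balance within the pair with identical promoter stretches also differed. AKR1C1 made up 10.1 ± 0.307% of the AKR1C1 and AKR1C2 sum in A549 (56.6 against 506 FPKM) and 73.0 ± 1.90% in H3255 (11.98 against 4.43 FPKM), with the caution on shared sequence above. In H1975 and H820 both genes were at most 0.337 FPKM in every vehicle library, too low to read a share.

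**Figure D1:**
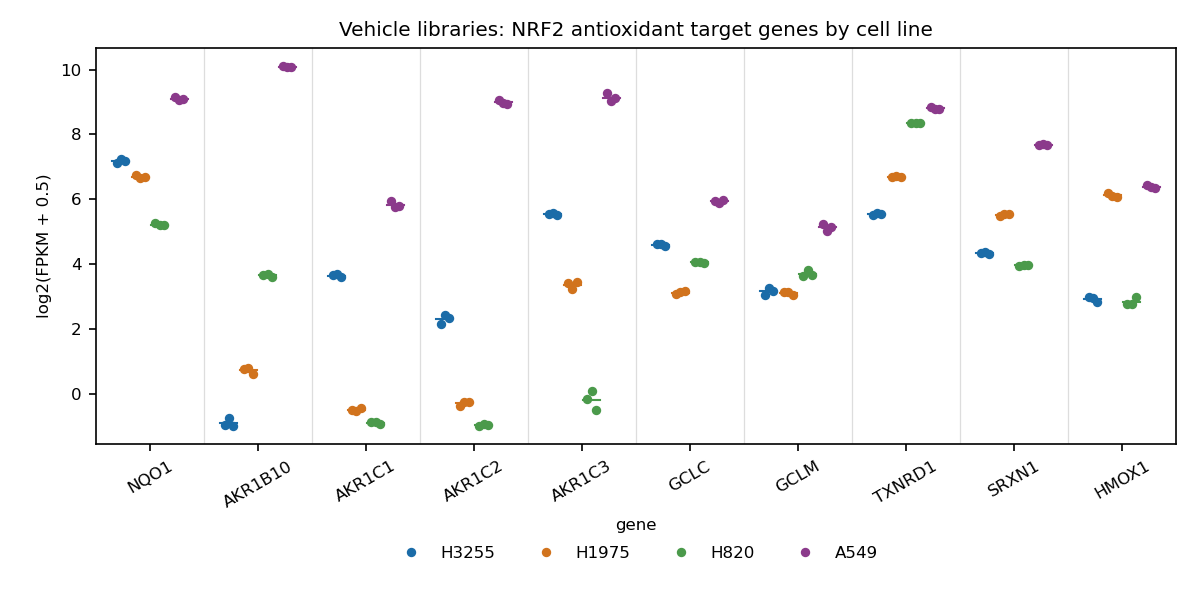
Levels of the 10 genes in vehicle libraries, as log2(FPKM + 0.5) on the vertical axis, with 1 point per library and a short bar at the mean of 3 libraries, coloured by line. A549 is at the top for each gene, the other 3 lines change places, and AKR1B10 and the AKR1C genes span the widest range.

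GCLC and GCLM encode the catalytic and the modifier subunit of glutamate-cysteine ligase, the rate-limiting enzyme of glutathione synthesis. GCLC was 60.4, 58.6 and 62.4 FPKM in A549, 23.8, 23.9 and 23.2 in H3255, 16.1, 16.2 and 16.0 in H820, and 7.88, 8.21 and 8.51 in H1975. GCLM was 36.7, 32.2 and 35.1 FPKM in A549, 11.9, 13.6 and 12.1 in H820, 7.79, 9.14 and 8.48 in H3255, and 8.22, 8.27 and 7.65 in H1975. These were the narrowest ranges of the 10 genes, with A549 7.38-fold above the lowest line for GCLC and 4.31-fold for GCLM. H3255 and H1975 overlapped for GCLM and did not differ beyond their spread there (log2 difference 0.07 ± 0.05 SE, adjusted p 0.22); after rescaling H3255 was called higher by 0.26 (adjusted p 2.94e-05), and leaving out vehicle library 1 of H3255 also gave a call (adjusted p 0.035), the range over the alternatives for this pair being 2.94e-05 to 0.82.

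TXNRD1, the cytosolic thioredoxin reductase, stood near its A549 level in H820. It was 463, 438 and 442 FPKM in A549, 329, 326 and 327 in H820, 102, 104 and 103 in H1975, and 45.2, 46.9 and 46.2 in H3255. H820, lowest for NQO1 and the AKR1C genes, was 1.37-fold below A549 here (log2 difference 0.45 ± 0.03 SE, adjusted p 2.43e-16). SRXN1, sulfiredoxin, which repairs over-oxidised peroxiredoxins, was 204, 206 and 204 FPKM in A549, 44.2, 46.2 and 45.7 in H1975, 19.6, 20.2 and 19.5 in H3255, and 14.8, 15.2 and 15.1 in H820. Its neighbouring lines did not overlap and all were called.

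HMOX1, heme oxygenase 1, is a target that both NRF2 and its competitor BACH1 are known to act on. It was 85.5, 82.8 and 81.3 FPKM in A549 and 72.4, 68.3 and 67.0 in H1975, 1.202-fold apart (log2 difference 0.26 ± 0.05 SE, adjusted p 9.8e-06 in limma). The size depended on the processing: H1975 minus A549 ran from -0.47 to -0.24 over the alternatives, called in each. H3255 had 7.32, 7.27 and 6.62 FPKM and H820 6.32, 6.37 and 7.33. Those 2 lines overlapped and were not called (log2 difference 0.08 ± 0.05 SE, adjusted p 0.12), though leaving out vehicle library 3 of H3255 gave 0.12 (adjusted p 0.028) and vehicle library 3 of H820 gave 0.14 (adjusted p 0.0059), over a range of 0.0059 to 0.42. H1975 thus ranked second for HMOX1 and SRXN1, next to last for the other reductases and TXNRD1, and last by mean for GCLC and GCLM.

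Of 30 other NRF2 target genes, 21 were called higher in A549 than in each other line and 2 lower (GSTM3 and ABCC5), against 17.4% and 24.3% of all genes; both counts were the same after rescaling. Genes entered these tests by their mean over all 36 libraries. ABCC2, ALDH3A1, CYP4F11 and NR0B1 averaged at most 0.541 FPKM in vehicle in each other line. They passed that filter through A549, so their higher calls followed from it. All genes, which give the shares, were filtered the same way. The genes named next were chosen after their values were seen. ALDH3A1, an aldehyde dehydrogenase, averaged 474 FPKM in A549 and at most 0.403 in another line. GPX2, a glutathione peroxidase, averaged 555 FPKM in A549, 9.54 in H3255 and less in H1975 and H820. SLC7A11, the cystine importer that feeds glutathione synthesis, averaged 24.4 FPKM in A549 and at most 3.60 elsewhere. NR0B1 was 22.8 FPKM in A549 and was listed at 0 in every library of H3255 and H820.

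The genes that control NRF2 did not share this pattern. Of 10 control genes, MAFG, MAFK and SQSTM1 were called higher in A549 than in each other line (17.4% of all genes). NFE2L1 was called lower (24.3% of all genes), a call that rescaling removed. NFE2L2 averaged 49.1 ± 3.22 FPKM in A549, 59.8 ± 2.87 in H3255, 44.1 ± 0.289 in H820 and 37.8 ± 0.839 in H1975. KEAP1 averaged 28.5 ± 0.326 FPKM in A549, 49.0 ± 2.19 in H1975, 22.8 ± 0.299 in H820 and 15.2 ± 0.857 in H3255. BACH1 averaged 6.56 ± 0.116 FPKM in A549, 4.23 ± 0.261 in H1975, 5.55 ± 0.294 in H3255 and 6.85 ± 0.0999 in H820. By mean, A549 was thus not the highest line for NFE2L2 or BACH1, nor the lowest for KEAP1. Among 19 glutathione and thioredoxin system genes outside the 10, 7 were higher in A549 than in each other line (17.4% of all genes). GSR, GPX2, TXN and PRDX1 among these 7 were also counted with the other NRF2 targets. Of the 19, 5 were lower (24.3% of all genes). The 5 were GPX1, GPX4, TXNRD2, TXNIP and PRDX2, named after their values were seen; PRDX2, a peroxiredoxin, averaged 0.0685 FPKM in A549 and 191 in H1975. Of 8 heme handling genes, 3 were higher in A549 than in each other line (BLVRB, FTL and FECH) and 0 lower, beside the same shares. FTL was also counted with the other NRF2 targets.

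MinE07 against C36 asks what the EGFR aptamer did beyond a control aptamer. In H3255 the response split the 10 genes: NQO1, GCLM, TXNRD1 and SRXN1 fell while AKR1C1 and GCLC rose. In H1975 AKR1B10, AKR1C3, TXNRD1 and HMOX1 rose while SRXN1 fell. In H820 and A549 none was called. A gene was tested in a line where its mean was at least 1 FPKM, and changes are differences of log2(FPKM + 0.5), which understate the change of low genes. Members called were 6 of 9 tested in H3255 (36.7% of all genes) and 5 of 8 in H1975 (19.9%). The counts were 0 of 7 for H820 (0.0364%) and 0 of 10 for A549 (0.00%). The median change of the tested members was -0.01 in H3255 (-0.01 over all genes), 0.14 in H1975 (-0.01), -0.04 in H820 (0.01) and 0.11 in A549 (0.00). Each of these 11 calls held under each of 16 alternatives, which include leaving out each library in turn. COX1 was listed at 0 in C36 library 2 and MinE07 libraries 2 and 3 of H3255. The summed lung epithelial markers were 388 to 416 FPKM with MinE07 and 341 to 350 with C36 in H3255, with 3 of 4 tested called higher, and 33.2 to 36.1 and 25.9 to 27.2 FPKM in H1975, with 2 of 2 called higher. The summed epithelial markers were 1542 to 1594 FPKM with MinE07 and 1722 to 1761 with C36 in H3255, with 2 of 5 called lower, and 1482 to 1535 and 1388 to 1462 FPKM in H1975, with 2 of 5 called higher. The summed mesenchymal markers were 12.1 to 14.0 and 8.02 to 9.05 FPKM in H3255, with 1 of 2 called higher, and 639 to 658 and 651 to 673 FPKM in H1975, with 3 of 4 called higher; the part of these in the results was not tested.

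**Figure D2:**
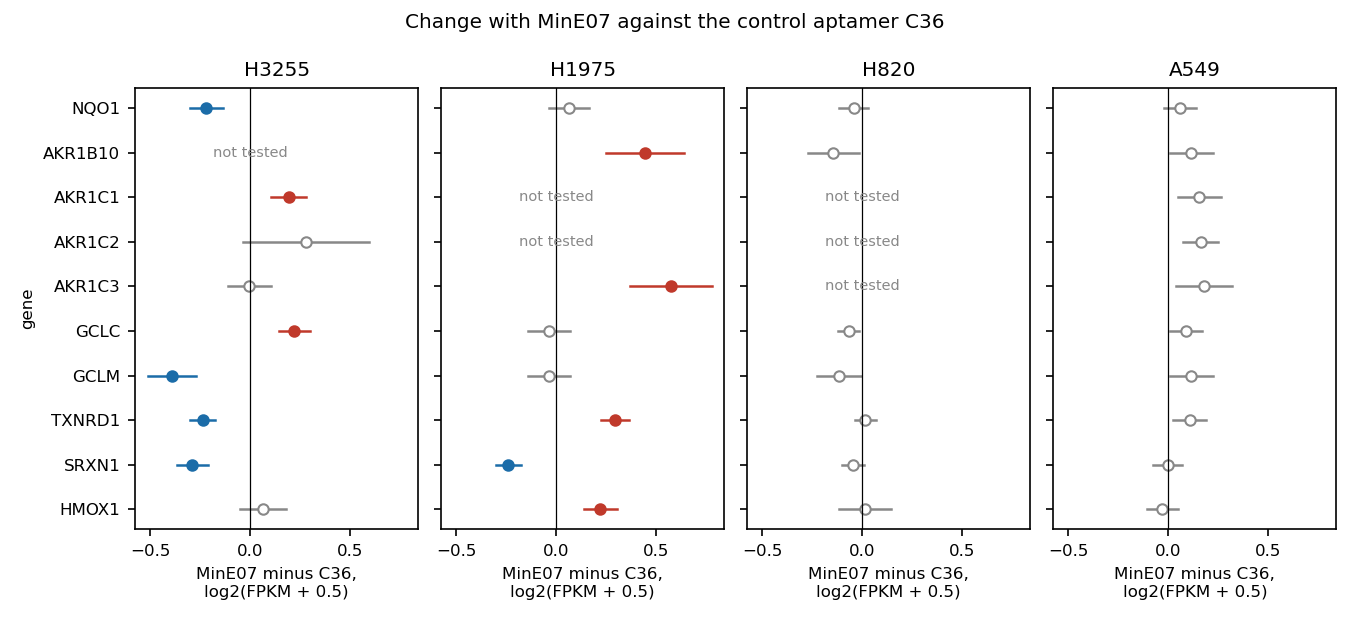
Difference between MinE07 and C36 on the log2(FPKM + 0.5) scale for each gene (rows) in each line (panels). Points are estimates and bars 95% confidence intervals from limma; filled red points were called higher, filled blue points lower, open points were not called, and genes under a mean of 1 FPKM in a line were not tested. H3255 has 4 genes to the left and 2 to the right, and TXNRD1 lies on opposite sides in H3255 and H1975.

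NQO1 in H3255 was 135, 135 and 137 FPKM with MinE07, 159, 154 and 161 with C36 and 138, 151 and 143 with vehicle. The MinE07 libraries were the lowest and the C36 libraries the highest, with no overlap between any of the treatments. NQO1 fell with MinE07 against C36 (log2 change -0.22 ± 0.04 SE, adjusted p 0.0011). Against vehicle the difference was -0.09 (adjusted p 0.090), called only when libraries were rescaled (-0.13, adjusted p 0.0069) or without vehicle library 1 (-0.12, adjusted p 0.036), over a range of 0.0069 to 0.30. In the other lines NQO1 differed by 0.06 in H1975 (95% interval -0.04 to 0.16), -0.04 in H820 (-0.11 to 0.03) and 0.06 in A549 (-0.02 to 0.14).

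AKR1C1 in H3255 was 14.2, 13.5 and 14.8 FPKM with MinE07, 12.3, 12.3 and 12.4 with C36 and 12.05, 12.3 and 11.6 with vehicle. All MinE07 libraries lay above all others, and AKR1C1 rose by 0.19 ± 0.04 SE against C36 (adjusted p 0.0034) and by 0.23 against vehicle (adjusted p 0.0010). AKR1C2, its near copy, differed by 0.28 with a 95% interval of -0.04 to 0.59 (adjusted p 0.15); it was called without C36 library 3 (0.40, adjusted p 0.044) and in a fit of all 36 libraries (adjusted p 0.0080), over a range of 0.0080 to 0.32. AKR1C3 in H3255 differed by -0.01 (-0.11 to 0.10).

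In H1975 AKR1C3 and AKR1B10 rose, while NQO1 was not called. AKR1C3 was 13.9, 11.3 and 14.05 FPKM with MinE07, 8.97, 8.005 and 8.85 with C36 and 10.3, 8.86 and 10.3 with vehicle, with every MinE07 library on top. AKR1C3 rose by 0.57 ± 0.09 SE against C36 (adjusted p 0.0029), the largest change of any member, and by 0.40 ± 0.09 against vehicle (adjusted p 0.013, and 0.058 with no filter on low genes, the highest of its alternatives, which ran from 0.0011). AKR1B10, at the lower end of what was tested, was 1.77, 1.48 and 1.79 FPKM with MinE07, 1.25, 1.09 and 0.976 with C36 and 1.19, 1.24 and 1.03 with vehicle. It rose by 0.44 ± 0.09 SE against C36 (adjusted p 0.0070) and by 0.40 against vehicle (adjusted p 0.010). AKR1C1 and AKR1C2 in H1975 stayed at or under 0.441 FPKM in every library and were not tested in the main fit. In 2 alternatives they were tested. Against C36 each was called in 1 of these. Against vehicle AKR1C1 was called in 1 and AKR1C2 in 0.

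**Figure D3:**
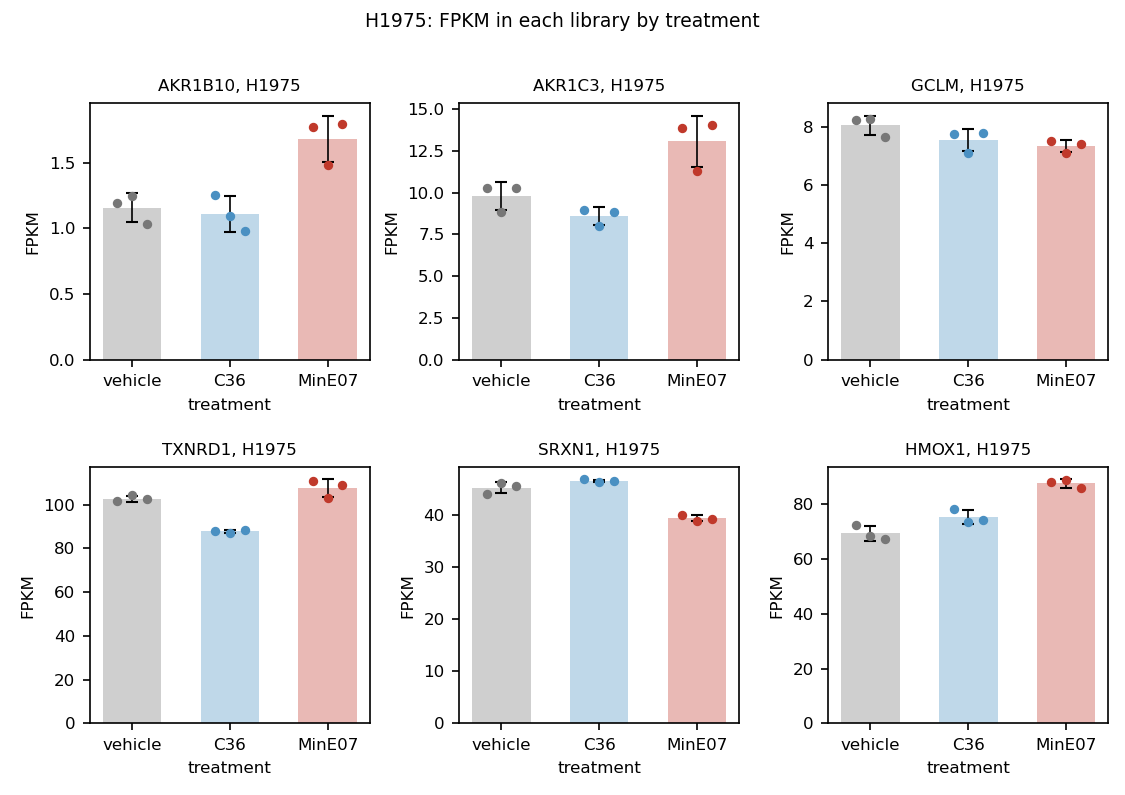
FPKM of 6 genes in H1975 by treatment, with 1 point per library, bars at the mean and error bars of 1 SD over 3 libraries. The MinE07 libraries are the highest for AKR1B10, AKR1C3 and HMOX1 and the lowest for SRXN1, and the C36 libraries are the lowest for TXNRD1.

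The 2 subunits of glutamate-cysteine ligase moved in opposite directions in H3255. GCLC was 31.4, 30.2 and 29.1 FPKM with MinE07, 25.6, 26.4 and 25.6 with C36 and 23.8, 23.9 and 23.2 with vehicle. GCLM was 6.65, 6.47 and 6.12 FPKM with MinE07, 8.48, 8.68 and 8.54 with C36 and 7.79, 9.14 and 8.48 with vehicle. For GCLC every MinE07 library was above, and for GCLM every MinE07 library below, the other 6 libraries of the line. GCLC rose by 0.22 ± 0.03 SE against C36 (adjusted p 0.00070) and by 0.35 ± 0.03 against vehicle (adjusted p 3.26e-05). GCLM fell by 0.39 ± 0.05 on the log2 scale against C36 (adjusted p 0.00031) and by 0.37 ± 0.05 against vehicle (adjusted p 0.00039). In H1975 neither was called, with intervals of -0.14 to 0.07 for both GCLC and GCLM.

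**Figure D4:**
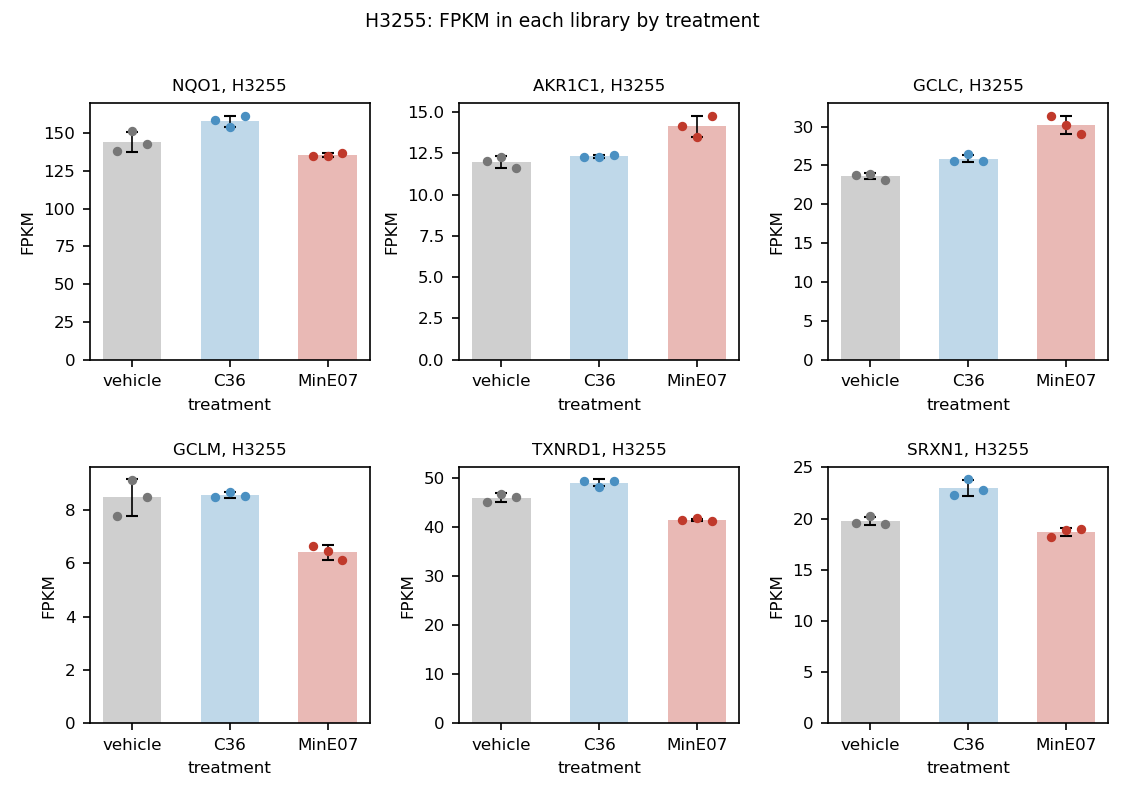
FPKM of 6 genes in H3255 by treatment, with 1 point per library, bars at the mean and error bars of 1 SD over 3 libraries. MinE07 libraries are the highest for AKR1C1 and GCLC and the lowest for NQO1, GCLM, TXNRD1 and SRXN1.

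Against C36, TXNRD1 changed in opposite directions in the 2 lines that carry L858R. In H3255 it was 41.5, 41.8 and 41.4 FPKM with MinE07, 49.5, 48.2 and 49.5 with C36 and 45.2, 46.9 and 46.2 with vehicle, so the 3 treatments did not overlap. In H1975 it was 111, 103 and 109 FPKM with MinE07, 88.0, 87.2 and 88.4 with C36 and 102, 104 and 103 with vehicle, so the C36 libraries were the lowest while MinE07 and vehicle overlapped. TXNRD1 fell by 0.24 ± 0.03 in H3255 (adjusted p 0.00012) and rose by 0.29 ± 0.03 in H1975 (adjusted p 0.00033). Against vehicle it fell by 0.15 ± 0.03 in H3255 (adjusted p 0.0021) and differed by 0.07 in H1975 (adjusted p 0.16). The rise in H1975 was thus measured against C36 and not against vehicle.

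SRXN1 fell with MinE07 in both L858R lines. In H3255 it was 18.2, 18.9 and 19.0 FPKM with MinE07, 22.3, 23.8 and 22.8 with C36 and 19.6, 20.2 and 19.5 with vehicle. In H1975 it was 40.1, 38.9 and 39.4 FPKM with MinE07, 46.9, 46.5 and 46.6 with C36 and 44.2, 46.2 and 45.7 with vehicle. In both lines every MinE07 library was below every other library. The fall against C36 was 0.29 ± 0.03 in H3255 (log2 change -0.29, adjusted p 0.00013) and 0.24 ± 0.03 in H1975 (log2 change -0.24, adjusted p 0.00047). Against vehicle SRXN1 fell in H1975 (-0.20 ± 0.03 SE, adjusted p 0.0011). In H3255 its difference from vehicle was -0.08 (adjusted p 0.10), called after rescaling (-0.12, adjusted p 0.016) and when all 36 libraries were fitted together (adjusted p 0.011), over a range of 0.011 to 0.27.

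HMOX1 rose in H1975. It was 87.7, 88.6 and 85.7 FPKM with MinE07, 77.9, 73.2 and 74.0 with C36 and 72.4, 68.3 and 67.0 with vehicle, with no overlap between treatments. The rise was 0.22 ± 0.04 SE against C36 (adjusted p 0.0032) and 0.33 ± 0.04 against vehicle (adjusted p 0.00042). In H3255 HMOX1 was 7.42, 8.28 and 8.02 FPKM with MinE07 and 7.32, 7.27 and 6.62 with vehicle, a rise of 0.15 ± 0.05 (adjusted p 0.041). That call was lost with no filter on low genes (adjusted p 0.13), after rescaling (adjusted p 0.13) and without C36 library 3, MinE07 library 2 or 3, or vehicle library 2 or 3, with adjusted p from 0.013 to 0.14 over its alternatives. In H820 and A549 the difference from C36 was 0.01 (-0.12 to 0.14) and -0.03 (-0.11 to 0.05).

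Against vehicle, MinE07 gave calls for 5 of 9 tested members in H3255 (38.6% of all genes), 4 of 8 in H1975 (23.7%), 1 of 7 in H820 (3.01%) and 0 of 10 in A549 (0.216%). The comparisons with vehicle and with C36 share the MinE07 libraries. The 1 call in H820 was AKR1B10, at 9.28, 8.13 and 9.21 FPKM with MinE07, 9.99, 9.22 and 10.4 with C36 and 12.05, 12.5 and 11.6 with vehicle. AKR1B10 fell by 0.43 ± 0.06 on the log2 scale in H820 (adjusted p 0.0044), and MinE07 overlapped C36. The fall was still called when either MinE07 library with COX1 and ND4 listed at 0 was left out on its own. The other such library stayed in each of those fits, and leaving out both was not tested.

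In A549 no member passed the threshold with MinE07. Against C36, 8 of 10 differences were positive and 2 negative, with a median of 0.11; against vehicle, 6 were positive and 4 negative, with a median of 0.03. With C36 against vehicle, which shares libraries with both, 1 was positive and 9 were negative, with a median of -0.10. Over all genes the medians of these comparisons were 0.00, 0.02 and 0.01. The members were measured in the same libraries, so their signs are not independent. For MinE07 against C36, 7 members did not overlap with C36 (22.6% of all genes) and 7 had an unadjusted p under 0.05 (10.8% of all genes), but 0 was called in limma and no gene of 13422 was. AKR1C2 had the smallest unadjusted p, 0.0020 (adjusted p 0.30), with 551, 548.8 and 563 FPKM against 490, 503 and 493 with C36 and 529, 496 and 494 with vehicle. In a fit of all 36 libraries TXNRD1 was called (0.11, adjusted p 0.029). In H820, 3 of 7 had an unadjusted p under 0.05 in limma (10.1% of all genes) and 3 did not overlap with C36 (17.1%). There 5 of 7 differences were negative, beside a median of 0.01 over all genes.

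C36 against vehicle asked what the control aptamer did by itself. Members called were 1 of 9 in H3255 (0.276% of all genes), 1 of 8 in H1975 (0.233%), 2 of 7 in H820 (2.84%) and 3 of 10 in A549 (5.97%). In A549 GCLC, GCLM and TXNRD1 fell, with MinE07 between C36 and vehicle in each. GCLC was 50.5, 51.7 and 51.9 FPKM with C36, 54.0, 55.6 and 54.3 with MinE07 and 60.4, 58.6 and 62.4 with vehicle. GCLM was 29.03, 28.3 and 28.9 FPKM with C36, 31.8, 31.1 and 30.5 with MinE07 and 36.7, 32.2 and 35.1 with vehicle. TXNRD1 was 401, 397 and 388 FPKM with C36, 426, 419 and 431 with MinE07 and 463, 438 and 442 with vehicle. The 3 treatments did not overlap for any of these genes.

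GCLC in A549 fell by 0.23 ± 0.04 (log2 change -0.23, adjusted p 0.0085) and was called under each alternative and without any 1 library. GCLM fell by 0.27 ± 0.05 (adjusted p 0.0155); the call was lost with no filter on low genes (adjusted p 0.080) and without C36 library 2 or 3 or vehicle library 3, over a range of 0.00065 to 0.080. TXNRD1 fell by 0.18 ± 0.04 (adjusted p 0.024); the call was lost with no filter (adjusted p 0.065) and without any C36 library or vehicle library 3, over a range of 1.33e-05 to 0.11. COX1 was listed at 0 in vehicle libraries 1 and 3 of A549; its part in these results was not tested.

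SRXN1 in H3255 rose with C36 by 0.21 ± 0.03 (adjusted p 0.048). That call was lost with no filter on low genes (adjusted p 0.19) and without any 1 library other than MinE07 library 1, with adjusted p from 1.57e-06 to 0.19. In H1975 TXNRD1 fell with C36 by 0.23 ± 0.03 (log2 change -0.23, adjusted p 0.032), lost with no filter (adjusted p 0.10) and without any C36 library, MinE07 library 3, or vehicle library 2 or 3, with adjusted p from 9.27e-06 to 0.17. In H820 AKR1B10 fell with C36 by 0.28 ± 0.06 (adjusted p 0.032), lost with no filter (adjusted p 0.17) and without C36 library 1 or 2 or any vehicle library, from 0.017 to 0.17. SRXN1 in H820 was 16.4, 16.7 and 16.5 FPKM with C36, 16.0, 15.9 and 16.1 with MinE07 and 14.8, 15.2 and 15.1 with vehicle. It rose with C36 by 0.13 ± 0.02 (adjusted p 0.025), lost with no filter (adjusted p 0.066) and without any C36 or any vehicle library, from 0.0011 to 0.097.

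**Figure D5:**
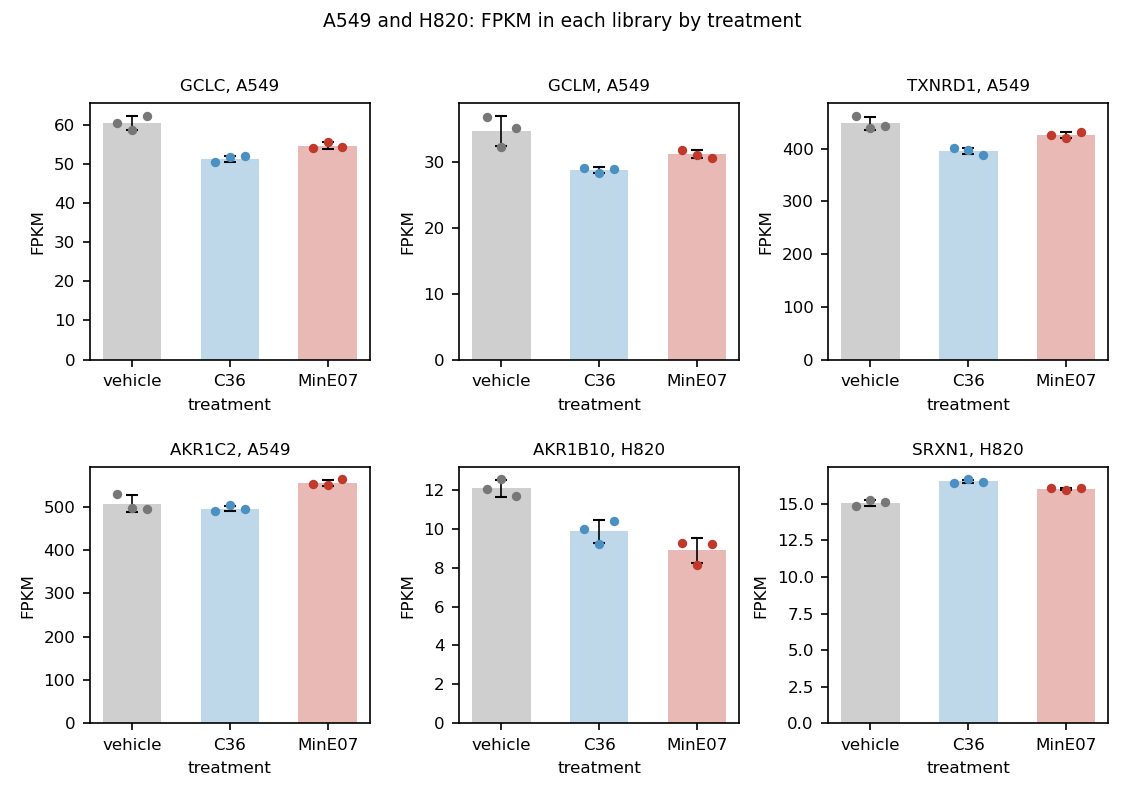
FPKM of 4 genes in A549 and 2 in H820 by treatment, with 1 point per library, bars at the mean and error bars of 1 SD over 3 libraries. In A549 MinE07 lies between C36 and vehicle for GCLC, GCLM and TXNRD1, and in H820 both aptamers are below vehicle for AKR1B10 and above it for SRXN1.

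Interaction terms, fitted over the 36 libraries together, compared the MinE07 against C36 change of one line with that of another. Members called were 6 for H3255 against H1975 (15.2% of all genes), 5 for H3255 against H820 (18.9%), 5 for H3255 against A549 (25.2%), 4 for H1975 against H820 (7.32%), 4 for H1975 against A549 (12.6%) and 0 for H820 against A549 (0.329%). Genes entered these fits by their mean over all 36 libraries, so a member under 1 FPKM in a line is held near 0 change there by the pseudocount. This holds for 2 of the calls, AKR1B10 for H3255 against H1975 and AKR1C3 for H1975 against H820, which leaves 5 of 7 and 3 of 7 members tested in both lines. TXNRD1 differed by -0.53 ± 0.04 SE for H3255 minus H1975 (adjusted p 8.27e-12). GCLC differed by 0.26 ± 0.05 (adjusted p 0.00020), GCLM by -0.35 ± 0.07 (adjusted p 0.00087) and NQO1 by -0.28 ± 0.05 (adjusted p 0.00022) between the same lines. SRXN1, which fell in both, differed by -0.05 (95% interval -0.12 to 0.02) there. HMOX1 differed between H1975 and A549 (0.25, adjusted p 0.014) and did not pass the threshold for H3255 minus H1975 (-0.16, 95% interval -0.30 to -0.02, adjusted p 0.13). AKR1C3 differed between H3255 and H1975 (-0.58, adjusted p 0.0085), lost with a pseudocount of 0.1 (adjusted p 0.12), over a range of 0.0011 to 0.12.

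The same terms for MinE07 against vehicle, which share the MinE07 libraries, gave other sizes. Members called were 5 for H3255 against H1975 (15.7% of all genes), 6 for H3255 against H820 (24.4%), 5 for H3255 against A549 (24.5%), 5 for H1975 against H820 (13.2%), 5 for H1975 against A549 (13.2%) and 1 for H820 against A549 (2.84%). Of members tested in both lines, these were 4 of 7, 4 of 6, 5 of 9, 3 of 7, 4 of 8 and 1 of 7. For H3255 minus H1975, TXNRD1 differed by -0.21 (adjusted p 6.82e-05), GCLC by 0.36 (adjusted p 1.31e-06) and GCLM by -0.25 (adjusted p 0.017). SRXN1, whose term against C36 was not called, differed by 0.12 (adjusted p 0.013), from -0.08 in H3255 and -0.20 in H1975; the call was lost after rescaling (0.08, adjusted p 0.15), over a range of 0.0053 to 0.15. NQO1 (-0.15, adjusted p 0.052), HMOX1 (-0.18, adjusted p 0.064) and AKR1C3 (-0.41, adjusted p 0.068) were not called, and each was called after rescaling (adjusted p 0.017, 0.043 and 0.046), over ranges of 0.017 to 0.17, 0.024 to 0.19 and 0.020 to 0.29.

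For C36 against vehicle, members whose change differed were 2 for H3255 against H1975 (0.494% of all genes), 0 for H3255 against H820 (1.96%), 3 for H3255 against A549 (3.47%), 1 for H1975 against H820 (1.33%), 1 for H1975 against A549 (3.54%) and 3 for H820 against A549 (6.16%). The fall of GCLC in A549 differed from the change in each other line, by 0.36 for H3255, 0.25 for H1975 and 0.25 for H820 (adjusted p 1.81e-05, 0.0016 and 0.0013).

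The genes around the 10 in the NRF2 pathway were also divided in H3255. With MinE07 against C36, 8 of 10 NRF2 control genes were called there (36.7% of all genes), 2 higher and 6 lower. NFE2L2 itself rose by 0.33 ± 0.04 (adjusted p 0.00018), from 57.6, 58.7 and 60.4 FPKM with C36 to 72.5, 77.2 and 72.7 with MinE07. BACH1, the repressor, rose by 0.31 ± 0.05 (adjusted p 0.00070), MAFF and MAFK, small MAF partners, fell (log2 change -0.35 and -0.28), and KEAP1 differed by 0.07 (-0.04 to 0.18). In the same comparison 4 of the 10 antioxidant genes fell and 2, AKR1C1 and GCLC, rose. NRF2 protein was not measured.

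Of 26 other NRF2 targets tested in H3255, 18 were called with MinE07 against C36 (36.7% of all genes), 8 higher and 10 lower. The median change of the 26 was -0.07 beside -0.01 over all genes. IDH1, an NADPH-making isocitrate dehydrogenase, rose by 0.69 ± 0.03 and ABCC5, an efflux pump, by 0.33 ± 0.04. SLC7A11 fell (-0.52 ± 0.05) from 4.35, 3.94 and 3.97 FPKM with C36 to 2.73, 2.79 and 2.54 with MinE07. Of 19 glutathione and thioredoxin system genes outside the 10, 7 rose and 2 fell, beside 36.7% of all genes called. GSR, GPX2, TXN and PRDX1 are in both lists. TXN, thioredoxin, the substrate of TXNRD1, fell (-0.33 ± 0.06), as did GPX1 (-0.14 ± 0.05), while GSTP1 (0.29 ± 0.07) and PRDX5 (0.27 ± 0.04) rose. Of 8 heme handling genes, 1 was called, ALAS1 (-0.19 ± 0.04), beside the same share.

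In H1975, where 19.9% of all genes were called with MinE07 against C36, 2 of 10 NRF2 control genes were: SQSTM1, an adaptor that binds KEAP1, rose by 0.19 ± 0.03, and MAFF fell (-0.32 ± 0.07). NFE2L2 differed by 0.07 (-0.02 to 0.15) and BACH1 by 0.06 (-0.05 to 0.18), so neither passed the threshold. Of 25 other NRF2 targets tested, 7 rose and 1 fell, with a median of 0.03 beside -0.01 over all genes. FTH1, the ferritin heavy chain, rose by 0.35 ± 0.06 from 2063, 1799 and 2135 FPKM with C36 to 2487, 2574 and 2583, ABHD4 rose by 0.32 ± 0.03, and CBR1 fell (-0.14 ± 0.04). Of 8 heme handling genes, which share FTH1 and FTL with that list, 4 rose and 0 fell, BLVRB, a biliverdin reductase, by 0.19 ± 0.04. CAT (0.24 ± 0.04) and TXNIP (0.21 ± 0.03) were among 3 of 18 glutathione and thioredoxin system genes that rose, with 0 falling.

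In H820 and A549, 0 genes of these 4 lists were called with MinE07 against C36. At an unadjusted p under 0.05 in limma there were, in H820, 2 of 10 control genes and 1 of 24 other targets. The counts there were 2 of 18 for glutathione and thioredoxin genes and 3 of 8 for heme handling genes, beside 10.1% of all genes. In A549 the counts of the 4 lists were 2 of 10, 2 of 29, 1 of 17 and 0 of 8, beside 10.8% of all genes. With C36 against vehicle in A549, ALDH3A1 fell (-0.40 ± 0.04, adjusted p 0.0020) from 459, 483 and 481 to 361, 366 and 352 FPKM and GPX2 fell (-0.24 ± 0.05), while SLC3A2 (0.19 ± 0.03), SQSTM1 (0.20 ± 0.04), NFE2L1 (0.22 ± 0.05) and SOD2 (0.28 ± 0.05) rose. ALDH3A1 was also the 1 other target called with MinE07 against vehicle in A549 (-0.37 ± 0.04, adjusted p 0.0074). In H820 SQSTM1 rose with MinE07 against vehicle (0.19 ± 0.02), MAFK rose with MinE07 (0.28 ± 0.04) and with C36 (0.16 ± 0.04), MAFG with C36 (0.18 ± 0.03), and CAT fell with both (-0.15 ± 0.03 and -0.18 ± 0.03).

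The likeness of other genes to the mean profile of the 10 was ranked over 7381 genes. Over 36 libraries, where 4 lines and 12 groups share most of the variation, the closest were AADACP1, USP3, GLDC, NEDD4 and GALNT14 (Pearson r 0.996 to 0.997). All of them were highest in A549 in vehicle, which follows from a profile of 10 genes that were all highest there. The ranking needed a mean of at least 1 FPKM over the 36 libraries. AADACP1, GLDC and GALNT14 averaged at most 0.255 FPKM in vehicle in each other line, so they entered it through A549. Single members had r with that mean from 0.53 for TXNRD1 and 0.60 for HMOX1 to 0.94 for SRXN1 and 0.97 for AKR1C2. Each member is part of the mean, which raises its r, so members and other genes cannot be compared by r. After each line's mean was subtracted, the closest genes were LITAF (r 0.72), PRRG4 (0.69), CXXC5 (0.69), GLP2R (0.68) and VAV3 (0.68), and members had r from -0.23 for SRXN1 to 0.76 for AKR1C3. Within the 10, GCLC (0.30) and GCLM (0.32) had a lower r with the mean that holds them than NQO1 (0.69) or TXNRD1 (0.69). These values describe 36 libraries that share lines and treatments.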

How the data were processed

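Poly-A RNA libraries were made with a stranded kit and read as 100-base pairs, per the labels. FPKM per gene were computed by the authors and deposited as 1 file per library; the submitters' processing notes name HISAT2, Cuffdiff, GRCh38.p12 and hg38 without versions or roles, and the annotation is not given in the sources used here. Each file lists 68271 entries; 1874 without a name and 31 under 15 repeated names were left out, and numbered copies of a gene were summed (5 list genes, 0 of the 10).

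Depth is unknown in reads; relative depth, from the steps between low FPKM values, was 0.590 to 1.385. Values were tested as log2(FPKM + 0.5) for genes with a mean of at least 1 FPKM in limma 3.58.1 (R 4.3.3, statmod 1.5.0; trend and robust moderation), 9 libraries per line, or all 36 for line and interaction contrasts, with Benjamini-Hochberg adjustment over all genes tested, two-sided, called under 0.05. The script was tested on simulated data. Intervals are 95%.

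The 10 genes and the lists were chosen with earlier results of these data known. Named genes were the 10, NFE2L2, KEAP1 and BACH1, up to 2 called genes per list, line, comparison and direction, and the 5 closest profiles. One gene that this rule also picks is not reported here. Alternatives were a pseudocount of 0.1 or 1, no filter, rescaling by medians of ratios, a replicate block, first entries only, other sets of libraries in the fit, and leaving out each library. Leaving out libraries for the interaction terms was added after seeing the data. Coordinates are from GENCODE 29 (GRCh38) and promoter sequences from RefSeq (GRCh38.p14).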

Additional observations from a re-analysis of the deposited data

Results flagged for a closer look

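The results listed here are differences between lines in the same treatment contrast, each passing adjusted p under 0.05 as an interaction term in limma over all 36 libraries, given as the first line minus the second on the log2(FPKM + 0.5) scale. Members with a mean under 1 FPKM in either line are left out.

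For MinE07 against C36, H3255 minus H1975 was -0.58 for AKR1C3, 0.26 for GCLC, -0.35 for GCLM, -0.28 for NQO1 and -0.53 for TXNRD1. H3255 minus H820 was 0.29 for GCLC, -0.28 for GCLM, -0.17 for NQO1, -0.25 for SRXN1 and -0.25 for TXNRD1. H3255 minus A549 was 0.13 for GCLC, -0.51 for GCLM, -0.28 for NQO1, -0.29 for SRXN1 and -0.34 for TXNRD1. H1975 minus H820 was 0.59 for AKR1B10, -0.19 for SRXN1 and 0.28 for TXNRD1. H1975 minus A549 was 0.33 for AKR1B10, 0.25 for HMOX1, -0.24 for SRXN1 and 0.18 for TXNRD1.

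For MinE07 against vehicle, H3255 minus H1975 was 0.36 for GCLC, -0.25 for GCLM, 0.12 for SRXN1 and -0.21 for TXNRD1. H3255 minus H820 was 0.40 for GCLC, -0.28 for GCLM, -0.16 for SRXN1 and -0.18 for TXNRD1. H3255 minus A549 was 0.18 for AKR1C1, 0.49 for GCLC, -0.22 for GCLM, 0.27 for HMOX1 and -0.17 for SRXN1. H1975 minus H820 was 0.82 for AKR1B10, 0.33 for HMOX1 and -0.28 for SRXN1. H1975 minus A549 was 0.31 for AKR1B10, 0.45 for HMOX1, -0.29 for SRXN1 and 0.14 for TXNRD1. H820 minus A549 was -0.51 for AKR1B10, a call lost with a pseudocount of 0.1 (adjusted p 0.29).

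For C36 against vehicle, H3255 minus H1975 was 0.17 for SRXN1 and 0.31 for TXNRD1. H3255 minus A549 was 0.36 for GCLC, 0.28 for GCLM and 0.27 for TXNRD1. H1975 minus H820 was -0.24 for TXNRD1, and H1975 minus A549 was 0.25 for GCLC. H820 minus A549 was 0.25 for GCLC, 0.29 for GCLM and 0.19 for TXNRD1.

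Some of these calls depended on single libraries, on the processing or on both, and each range of adjusted p covers all alternatives. For MinE07 against C36, AKR1B10 in H1975 minus H820 was lost with a pseudocount of 0.1 (adjusted p 0.066). The losses of AKR1C3 and SRXN1 in H3255 minus H1975 are given above. GCLC for MinE07 against C36 in H3255 minus A549 had adjusted p from 0.015 to 0.12. It was lost after rescaling (adjusted p 0.12) and with no filter on low genes (adjusted p 0.068). It was also lost without C36 library 2 or 3 or MinE07 library 1 or 3 of A549. The same held without C36 library 1 or 3 or MinE07 library 1 or 2 of H3255. AKR1B10 in H1975 minus A549 had adjusted p from 0.0090 to 0.23. It was lost with a pseudocount of 0.1 (adjusted p 0.23) and with no filter (adjusted p 0.070). It was also lost without C36 library 1 or 2 or MinE07 library 3 of A549. The same held without C36 library 2 or 3 or MinE07 library 1 or 3 of H1975. GCLM for C36 against vehicle in H3255 minus A549 had adjusted p from 0.0093 to 0.090. It was lost with no filter (adjusted p 0.055). It was also lost without C36 library 2 or 3 or vehicle library 1 or 3 of A549. The same held without C36 library 2 or vehicle library 1 of H3255. GCLM in H820 minus A549 was lost without C36 library 3 of H820 (adjusted p 0.052, from 0.0047), and NQO1 in H3255 minus H820 without C36 library 2 of H820 (adjusted p 0.060, from 0.011). For MinE07 against vehicle, GCLM in H3255 minus H1975 was lost without MinE07 library 3 or vehicle library 2 of H3255 or vehicle library 3 of H1975 (adjusted p from 0.0038 to 0.071). GCLM in H3255 minus A549 was lost with no filter (adjusted p 0.064) and without MinE07 library 3 or vehicle library 2 of H3255. The same held without MinE07 library 1 or vehicle library 2 of A549 (adjusted p from 0.0054 to 0.099). AKR1C1 in H3255 minus A549 was lost with a pseudocount of 0.1 (adjusted p 0.22), after rescaling (adjusted p 0.087) and with no filter (adjusted p 0.054). It was also lost without MinE07 or vehicle library 3 of H3255, or MinE07 library 3 or vehicle library 1 of A549 (adjusted p from 0.013 to 0.22). AKR1B10 in H1975 minus A549 was lost with a pseudocount of 0.1 (adjusted p 0.27) and with no filter (adjusted p 0.090). It was also lost without MinE07 library 1 or 3 or vehicle library 3 of H1975. The same held without MinE07 library 3 or vehicle library 2 or 3 of A549 (adjusted p from 0.015 to 0.27).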

How the results depend on the processing

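Of 28 treatment calls of the 10 genes within a line, 20 were kept under every alternative, as were 58 of 58 calls between lines in vehicle. Of 74 uncalled treatment results, 13 were called under some alternative. Members not tested in a line were not among the 74. Members called for C36 against vehicle went from 1 to 0 in H3255, from 1 to 0 in H1975, from 2 to 0 in H820 and from 3 to 1 in A549 with no filter on low values. A fit of all 36 libraries gave 3 for C36 against vehicle in H3255, 2 for MinE07 against vehicle in H820, 2 for MinE07 against vehicle in A549 and 1 for MinE07 against C36 in A549. A pseudocount of 0.1 gave 2 in place of 4 for the difference in MinE07 against C36 between H1975 and H820; the cause was not tested. Leaving out 1 library gave, for C36 against vehicle, 0 to 1 in H3255 and 0 to 1 in H1975; the range was 0 to 2 for H820 and 1 to 3 for A549, and it was 0 to 1 for MinE07 against vehicle in A549.

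Same-numbered libraries deviated together with r from -0.16 to 0.25, and in 0 of 12 group pairs was every r over 0.1, so the replicate numbers were not taken as a pairing. With a replicate block, members called for C36 against vehicle were 0 in H3255, 0 in H1975 and 0 in H820, and TXNRD1 in A549 lost its call (adjusted p 0.063). Depth in reads is unknown, so low values such as AKR1B10 in H1975 carry no counting interval.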
